A study of Mus musculus with 4 samples.

Results

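Adrenosympathetic cells are neural crest-derived cells that were captured together with the gonad and mesonephros when these were dissected from mouse embryos. They were taken here as all cells that carry the name "Adenosympathic cells" in the deposited annotation, spelled as deposited, and numbered 813 of 52745 cells. The study asked how loss of the miR-17~92 microRNA cluster affects the gonad around sex determination, and profiled dissociated gonads with mesonephros by droplet-based single-cell RNA-seq (scRNA-seq). There were 4 samples with 1 sample per group, all labelled C57BL/6 x 129S4/SvJae: XY control at E11.5 (524 cells of this type), XX control at E11.5 (87), and XY miR-17~92 knockout at E11.5 (134) and at E11.75 (68), here KO E11.5 and KO E11.75. The KO embryos were homozygous for a CRISPR deletion of miR-17~92 in G4 embryonic stem cells and were produced by aggregating these cells with tetraploid embryos, so that the fetus derives from the edited line. Unedited G4 cells gave the XY controls, whereas XX controls were bred from C57BL/6J males and 129 females. Each sample was a pool of several embryos, and how many KO clones it holds is not given in the sources used here. KO E11.75 cells could only be set against controls of the earlier stage, so that stage and deletion cannot be told apart in that comparison. The other samples had 2 technical runs and KO E11.75 had 1 run. The paper's methods list 17057 cells for XY mutants at E11.75 and 8492 for those at E11.5. The deposited labels give these totals the other way round and were followed here. By these labels the sample with 1 run is the one with 8492 cells. Runs and cells are not replicates, so no p-value is given, and all intervals are 95% intervals for counting error only.

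Sympathoadrenal cells arise from neural crest cells that migrate ventrally to the dorsal aorta, where BMP signals switch on the transcription factors of the lineage. Hand2, Phox2a, Gata3, Insm1 and Isl1 direct the cells to make and store catecholamines, and the cells form sympathetic neurons or the chromaffin cells of the adrenal medulla. Chromaffin cells also arise from glia-like Schwann cell precursors, which express Sox10, Foxd3 and Erbb3 and reach the adrenal primordium, close to the gonad, along nerves. The miR-17~92 cluster encodes microRNAs with 4 different seeds, which pair through bases 2 to 8 with sites in the 3′ untranslated region (UTR) of mRNAs and lower their levels.

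The mature sequences of the cluster on mouse chromosome 14 are shown because the deletion removes their gene (RefSeq, GRCm38.p6, plus strand, from chr14:115043684-115043706 for miR-17-5p to chr14:115044476-115044496 for miR-92a-3p). Capitals mark the seed. miR-17-5p and miR-20a-5p share a seed, as do miR-19a-3p and miR-19b-3p, whereas the miR-18a-5p and miR-92a-3p seeds differ from these and from each other.
mmu-miR-17-5p: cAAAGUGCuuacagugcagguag
mmu-miR-20a-5p: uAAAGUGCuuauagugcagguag
mmu-miR-18a-5p: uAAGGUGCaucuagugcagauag
mmu-miR-19a-3p: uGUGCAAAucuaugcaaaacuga
mmu-miR-19b-3p: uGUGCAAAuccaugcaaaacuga
mmu-miR-92a-3p: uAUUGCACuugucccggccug

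Of the 3 genes that mark the type, Tubb3 and Stmn2 were detected more often in these cells than in mesenchyme, and Cartpt in few. The label was itself drawn from expression markers. Among genes with at least 5 unique molecular identifiers (UMIs) in each sample, those that most exceeded all other cells included Insm2, Cdh19, Elavl3, Gpr17, Chgb, Insm1, Dbh, St18 and Tlx2. These genes also formed the clusters, so their rank is a description only. When each cell was thinned to 2000 UMIs, Tubb3, which encodes a neuronal tubulin, was detected in 43.8%, 43.9%, 42.9% and 48.8% of adrenosympathetic cells of XY control, KO E11.5, KO E11.75 and XX control samples. In mesonephric mesenchyme, which should lack it, the share was at most 0.692%. Stmn2, a neuronal stathmin, was detected in 16.1% to 24.4% and in at most 2.21% of mesenchyme. Cartpt, which encodes a neuropeptide precursor, marked few cells, with 13 of 386, 3 of 123, 0 of 56 and 2 of 86 cells in the same sample order.

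Depth differed between the samples. The cells held 2411020, 898092, 417316 and 1701880 UMIs in XY control, KO E11.5, KO E11.75 and XX control samples, and the median cell had 4416, 6643.5, 5551.5 and 18471 UMIs. The authors capped UMIs per cell in XY but not in XX samples, and 20 XX cells held 30000 UMIs or more. The median percent of mitochondrial UMIs was 4.06, 4.21, 5.85 and 2.66 in that order. No barcode was shared between adrenosympathetic cells of different libraries, and 16 of these cells had a barcode that was also in another library among all cells.

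RNA of other cell types was present and uneven. Mesenchyme markers (10 genes) summed to 622 CPM (UMIs of a gene scaled to a common total per sample) in XY control, 497 in KO E11.5, 1538 in KO E11.75 and 415 in XX control cells. In KO E11.75 they exceeded every other sample, with 1 of 10 markers at 0. Markers of erythroid cells (8 genes) summed to 2873 CPM in XY control cells and to 896, 1363 and 796 CPM in the others, and the authors' limit on beta globin differed between the XY samples. Markers of the central nervous system summed to 0.588 to 2.40 CPM, with 6 to 7 of 8 at 0, sensory neuron markers to 0 to 40.7 CPM, and markers of immune cells to 2.23 to 20.7 CPM. Markers of endothelium summed to 25.3 to 58.1 CPM, of germ cells to 26.7 to 134 CPM, of gonadal soma to 71.1 to 192 CPM and of adrenal cortex to 43.1 to 83.4 CPM. Enteric neuron markers, several of which sympathoadrenal cells also express, summed to 449.5 to 721 CPM. Results without cells that hold such markers are given below where they were computed, and RNA of other types in the cells kept was not tested.

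Adrenosympathetic cells made up a smaller share of both KO samples than of both control samples. They were 2.23% (2.04 to 2.42) of XY control cells, 0.786% (0.659 to 0.930) of KO E11.5 cells, 0.801% (0.622 to 1.01) of KO E11.75 cells and 2.37% (1.90 to 2.92) of XX control cells. The XY control share was 2.84 times (2.35 to 3.42) that of KO E11.5. Technical runs gave 1.85% and 2.60% in XY control, 0.792% and 0.780% in KO E11.5, and 2.13% and 2.63% in XX control, so that the runs of controls and KO did not overlap. Among cells of non-gonadal types the order was the same, at 3.22%, 1.09%, 1.25% and 3.24%. Adrenal gland cells of the deposited annotation, from the organ next to the gonad, numbered 241 of 23527, 127 of 17057, 8 of 8492 and 55 of 3669 cells in XY control, KO E11.5, KO E11.75 and XX control. Their shares were also lower in both KO samples but did not follow those of adrenosympathetic cells. The KO E11.75 share of adrenal gland cells lay far below that of KO E11.5. How much adjacent tissue each pool held was not measured, and with 1 pool per group the difference cannot be told apart from dissection.

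**Figure D1:**
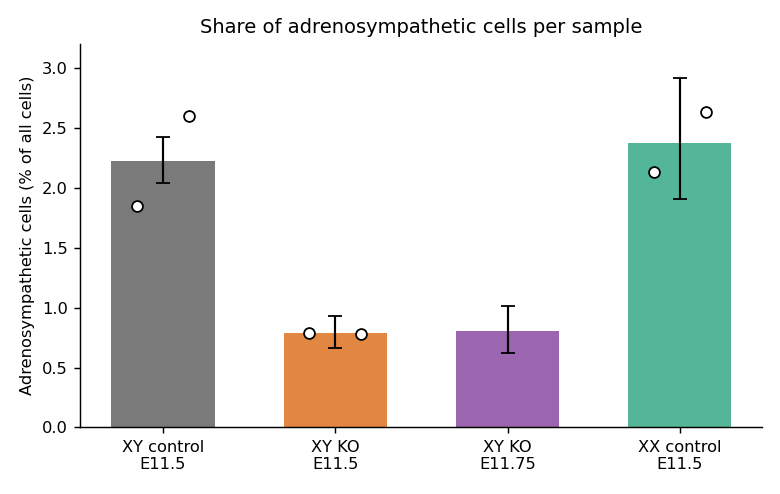
Share of adrenosympathetic cells among all cells (y axis, percent) in the 4 samples (x axis), with bars for the whole sample, exact 95% intervals and open circles for technical runs. Both KO samples lie near 0.8%, below both controls at 2.23% and 2.37%.

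Within the type, cells were assigned to 2 marker states at 2000 UMIs per cell. A cell counted as precursor with at least 2 of 6 glial precursor markers (among them Sox10, Foxd3, Erbb3 and Fabp7) and as neuroblast with at least 2 of 9 markers (among them Stmn2, Tubb3, Hand2, Gata3, Prph, Elavl4, Th and Dbh). The precursor share was 19.4% (15.6 to 23.7) of 386 XY control cells, 17.9% (11.6 to 25.8) of 123 KO E11.5 cells, 16.1% (7.62 to 28.3) of 56 KO E11.75 cells and 11.6% (5.72 to 20.3) of 86 XX control cells. The neuroblast share was 63.2% (58.2 to 68.0), 56.1% (46.9 to 65.0), 69.6% (55.9 to 81.2) and 59.3% (48.2 to 69.8) in that order. At this depth the intervals of all 4 samples overlapped for both shares. With no thinning they did not all overlap, with a precursor share of 29.96% (26.1 to 34.1) in XY control and 44.8% (36.2 to 53.6) in KO E11.5, and a neuroblast share of 69.8% (65.7 to 73.8) in XY control against 88.5% (79.9 to 94.3) of XX control and 88.2% (78.1 to 94.8) of KO E11.75 cells. The median depth of these cells also differed, at 4416, 6643.5, 5551.5 and 18471 UMIs in XY control, KO E11.5, KO E11.75 and XX control. The same rule marked at most 0.0887% of mesenchyme cells as precursor and at most 0.323% as neuroblast. It left out 138, 11, 12 and 1 cells shallower than 2000 UMIs.

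Genes that the rule did not use separated the states. Over all samples there were 78 precursor-only cells, 38 cells with both marker sets, 365 neuroblast-only cells and 170 with neither. Ednrb, the endothelin receptor of migrating crest, was at 840 CPM in precursor-only cells, 421 in cells with both sets and 49.3 in neuroblast-only cells. Postn, a secreted matrix protein, went from 564 through 118 to 24.7 CPM, and Ngfr, the low-affinity neurotrophin receptor, from 199 through 39.5 to 23.3 CPM. Phox2a ran the other way, with 0 UMIs in precursor-only cells (which allows up to 19.2 CPM), 39.5 CPM in cells with both sets and 684 CPM in neuroblast-only cells. Isl1 followed with 0, 52.6 and 381 CPM. In cells with neither set Phox2a and Isl1 were at 47.1 and 50.0 CPM, so the high levels of both lay in neuroblast-only cells.

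Set against precursor-only and neuroblast-only cells, some genes were highest in cells with both marker sets. Cck, which encodes the peptide cholecystokinin, was at 553 CPM (398 to 747) in them, against 57.7 (26.4 to 110) in precursor-only and 295 (256 to 337) in neuroblast-only cells. Cdkn1c, an imprinted inhibitor of cyclin-dependent kinases, was at 9013 CPM against 4737 and 5873. Tlx2, a homeobox factor of crest-derived neurons, was at 829 CPM, close to the 811 CPM of neuroblast-only cells. In contrast, Chgb, Hand1, Rgs4 and Slc18a2 had 0 UMIs in these 38 cells, which allows up to 39.5 CPM each, whereas neuroblast-only cells held 762, 167, 203 and 197 CPM. Before deposit the authors removed doublets, and the median depth was 6888.5 UMIs in cells with both sets, 5643 in precursor-only and 5936 in neuroblast-only cells. Within samples, cells with both sets were deeper than neuroblast-only cells in XY control (6261 against 5546.5), KO E11.5 (10056 against 6555.5) and XX control (31197 against 18102). In KO E11.75 they were shallower (4452 against 5691.5). Whether some cells with both sets are doublets was not tested. Of the 38 cells, 24 came from the XY control, 5 and 3 from the KO samples and 6 from the XX control.

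**Figure D2:**
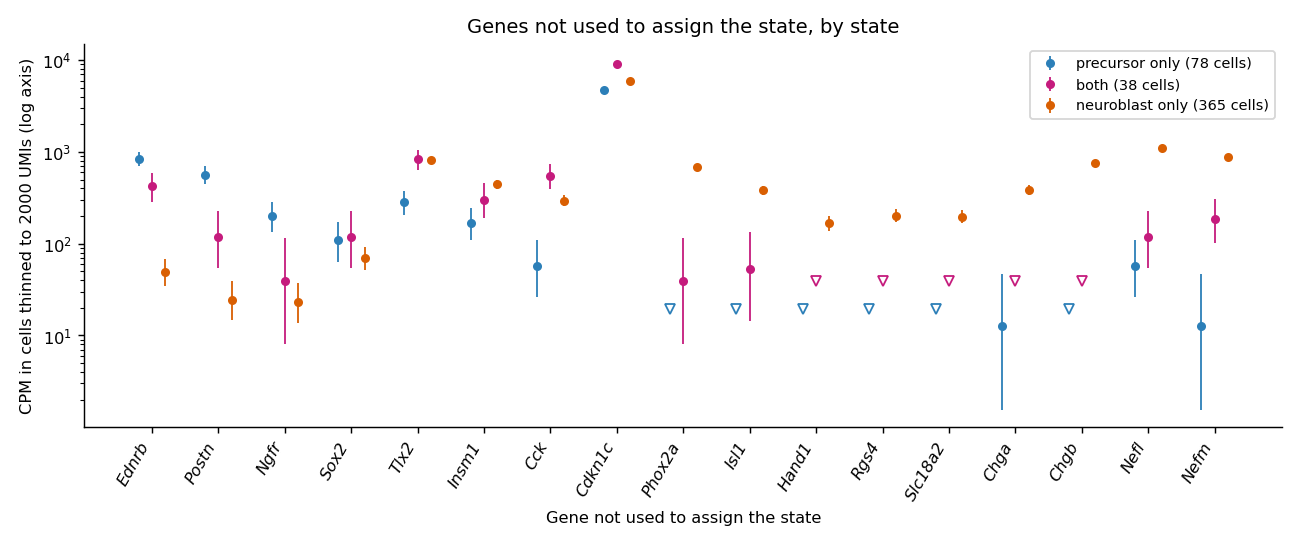
CPM (y axis, log scale) of genes that were not used to assign states (x axis), summed over cells thinned to 2000 UMIs in precursor-only, both-set and neuroblast-only cells, with 95% Poisson intervals. Open triangles mark 0 UMIs and stand at the level that 3 UMIs would give, and Cck and Cdkn1c peak in the cells with both marker sets.

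Among the regulators of the lineage, Isl1 had like levels in the 4 samples and Hand2 less so. Others, such as Phox2a and Gata3, differed between the KO stages, as given below. Isl1, a LIM homeodomain factor and a listed target of the cluster, was at 198 CPM in XY control, 195 in KO E11.5, 185 in KO E11.75 and 196 in XX control cells. Hand2 was at 308, 288, 352 and 253 CPM. Among precursor genes, which did not all go together, Sox10 was at 66.8, 70.1, 74.3 and 55.2 CPM and Erbb3, a neuregulin receptor, at 111, 101, 101 and 65.2 CPM, lowest in the XX control. For Isl1 and Sox10 the intervals of all 4 samples overlapped.

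To compare samples, UMIs were summed over the cells of a sample and a gene was called when its CPM differed at least 2-fold and the interval of the log2 ratio left out 0. In KO E11.5 over XY control, 0.413% of 9675 genes tested were called higher and 2.99% lower, 3.4% in all. Of the 219 genes in the 12 lists of the lineage and of known targets, 176 were tested, and 0 were called higher and 5 lower, shares of 0% and 2.84%. With scaling by trimmed means (TMM) in place of total UMIs, 2 were called higher and 4 lower. The 5 were Gfra2 (a co-receptor for neurturin), Rab3a (a synaptic vesicle GTPase), Ntrk2 (the BDNF receptor), Plxna2 (a semaphorin receptor) and E2f2 (an S phase factor). Plxna2 was at 50.6 CPM in XY control, 21.2 in KO E11.5, 64.7 in KO E11.75 and 20.0 in XX control cells. Its log2 ratio of -1.23 (-2.04 to -0.55) in KO E11.5 met -1.33 (-1.93 to -0.78) in the XX control, so it did not separate KO from control samples either.

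By size, the call in KO E11.5 with the same sign in KO E11.75 held for 6 genes higher among those with at least 100 UMIs. Mir17hg, the host transcript of the cluster, was at 14.9 CPM in XY control, 163 in KO E11.5, 161 in KO E11.75 and 12.3 in XX control cells. It was higher in both KO samples by a log2 ratio of 3.43 and 3.42, and by 2.97 and 3.01 in all other cells. Reads from 3′ ends do not cover the mature microRNAs, so this tells the KO samples apart but does not measure the microRNAs themselves. The others were Mllt11, Socs2, Lix1, Msmo1 and Slitrk2, at log2 ratios of 1.03 to 1.32 in KO E11.5. In KO E11.75 the ratios of Mllt11 at 0.39 (-0.56 to 1.17), Socs2 at 0.39 (-0.64 to 1.23) and Msmo1 at 0.73 (-0.14 to 1.47) had intervals that include 0. Lix1 was at 1.18 (0.45 to 1.84) there, and at 0.94 (0.47 to 1.42) in the XX control. Slitrk2, a transmembrane protein of neurite growth, was at 37.7 CPM in XY control, 76.8 in KO E11.5, 71.9 in KO E11.75 and 41.7 in XX control cells. Both KO samples lay above the XX control, whereas the rule of selection itself sets both above the shared XY control. In all other cells its log2 ratios were -0.08 and -0.22.

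Of genes lower by the same rule, 17 qualified and the 10 with the lowest ratios were H19, Pcdh10, Hnrnpul1, Aldh1a2, Cic, Usp11, Slc10a4, Nfxl1, Trp53inp1 and Pdlim3. H19, an imprinted long non-coding RNA, had 1012 UMIs in XY control, 2 in KO E11.5, 0 in KO E11.75 and 781 in XX control cells. Its log2 ratio was -7.24 (-10.61 to -5.70) in KO E11.5, and in KO E11.75 it was at least 58.4-fold lower, with log2 ratios of -5.85 and -7.24 in all other cells. Both KO samples were thus low in adrenosympathetic and in all other cells. For the other 9 genes the log2 ratios were -1.65 to -1.09 in KO E11.5 and -0.69 to -0.12 in KO E11.75, where the intervals of all but Pcdh10 include 0. In the XX control Usp11 and Trp53inp1 were at -0.61 (-1.12 to -0.13) and -0.62 (-1.10 to -0.17). Pcdh10, a protocadherin, was at 71.3, 22.3, 43.1 and 40.0 CPM, with the XX control near KO E11.75.

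In KO E11.75 over XY control, 6.07% of 9483 genes tested were called higher and 1.61% lower, 7.69% in all. The median gene stood at a log2 ratio of 0.21, so list values are given relative to it. With TMM the split turned, from 576 higher and 153 lower to 216 higher and 472 lower, so a call on its own depends on the scaling. Of 175 list genes tested, 14 were called higher (8%) and 3 lower (1.71%), and with TMM 5 were called higher and 10 lower. The 5 called higher under both scalings were Mycn, Rgs4, Slc18a2, Erbb2 and Epas1. Nefm, Stmn3 and Cartpt were called lower under both, although the Cartpt UMIs sat in few cells.

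The catecholamine genes Th and Slc18a2 were highest in KO E11.75 cells. Th, the rate-limiting enzyme, was at 71.8 CPM (61.5 to 83.3) in XY control, 105 (84.6 to 128) in KO E11.5, 170.1 (133 to 215) in KO E11.75 and 41.7 (32.6 to 52.6) in XX control cells. The vesicular monoamine transporter gene Slc18a2 was at 80.9 CPM (69.9 to 93.1), 136 (113 to 162), 218 (176 to 268) and 42.3 (33.1 to 53.3). For both genes the intervals of the 4 samples did not overlap each other, and the XX control was lowest. This order held for summed UMIs, whereas at 2000 UMIs per cell Th was detected in 10.1%, 9.76%, 21.4% and 4.65% of cells of the XY control, KO E11.5, KO E11.75 and XX control, and the exact intervals overlapped for all pairs but KO E11.75 and the XX control. The share with Slc18a2 was 11.9%, 14.6%, 19.6% and 6.98% in the same order, and all intervals overlapped. The log2 ratio over XY control was 0.75 (0.41 to 1.08) and 1.44 (1.06 to 1.80) for Slc18a2, and -0.52 and -0.01 in all other cells. The log2 ratio of Th was 0.55 (0.17 to 0.92) and 1.25 (0.83 to 1.65), and with TMM it was 0.98 in KO E11.75, just under the call. Dbh, which converts dopamine to noradrenaline, was at 249.7, 324, 338 and 174 CPM and was not called. As a list, 2 of 12 genes were called higher and 0 lower in KO E11.75 (6.07% and 1.61% over all genes), and with TMM 1 and 1, and the median lay 0.07 above that of all genes.

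Rgs4 and Mycn differed in the same direction. Rgs4, which curbs G protein signalling, was at 88.8 CPM in XY control, 122 in KO E11.5, 237 in KO E11.75 and 18.8 in XX control cells. It was thus highest in the KO samples and lowest in the XX control, where its log2 ratio was -2.22 (-2.82 to -1.70). Mycn, a MYC family transcription factor, was at 52.7, 77.9, 132 and 45.2 CPM, at log2 ratios of 0.57 (0.12 to 1.0) and 1.33 (0.84 to 1.79) in the KO samples. In all other cells Mycn was also higher, at 0.27 and 0.75.

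**Figure D3:**
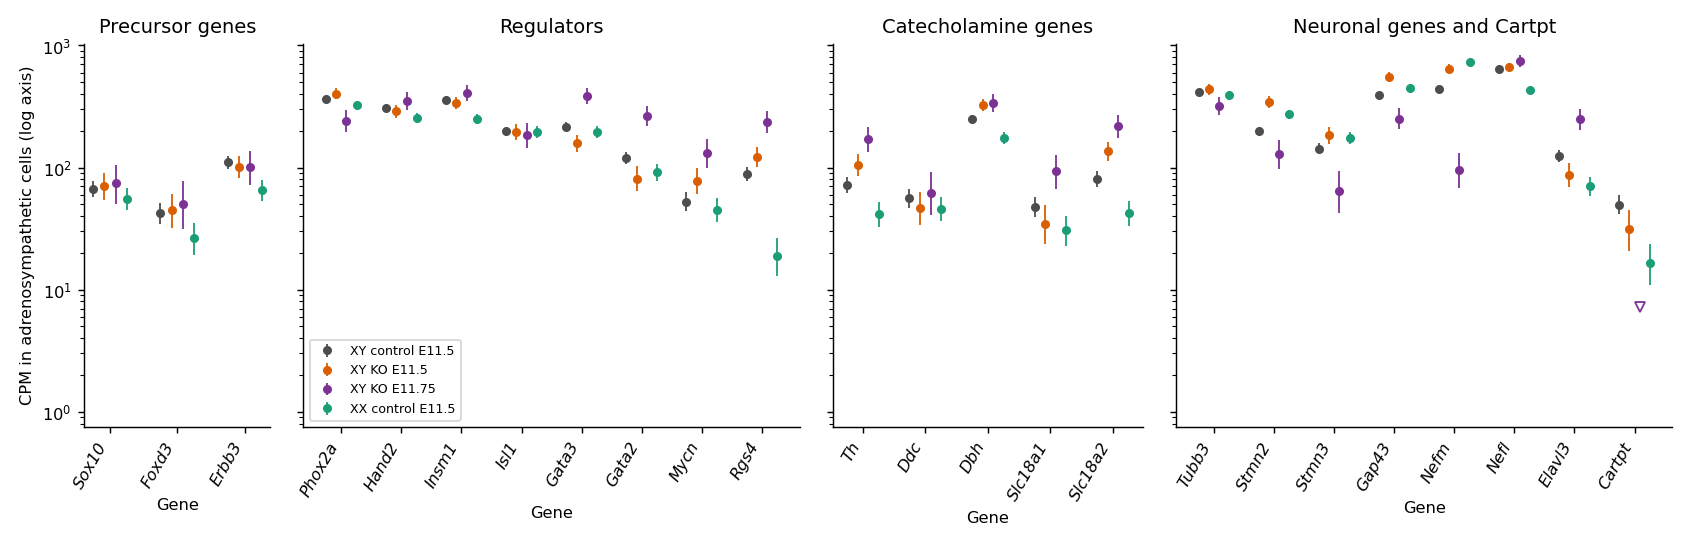
CPM (y axis, log scale) of named genes (x axis) in adrenosympathetic cells of the 4 samples, summed over cells, with 95% Poisson intervals and an open triangle for 0 UMIs at the level of 3 UMIs. Isl1 and Sox10 lie close together across samples, Th, Slc18a2, Mycn and Rgs4 are highest in KO E11.75, and Nefm, Stmn2, Stmn3 and Cartpt are lowest there.

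Several neuronal genes were highest in KO E11.5 or XX control cells and lowest in KO E11.75. The list of cytoskeletal and RNA-binding genes stood 0.27 above the median gene in KO E11.5 over XY control, with 0 of 26 genes called in either direction (2 higher with TMM, Stmn4 and Prph), and 0.10 below it in KO E11.75. Nefm, a neurofilament subunit, was at 441 CPM (415 to 469) in XY control, 647 (595 to 702) in KO E11.5, 95.9 (68.5 to 131) in KO E11.75 and 734 (694 to 776) in XX control cells. Only KO E11.75 was low, at a log2 ratio of -2.19 (-2.70 to -1.75), against -1.41 in all other cells. Nefl, the partner subunit, was at 641, 667, 740.4 and 428 CPM, so the neurofilament genes did not go together. Stmn2 was at 198, 346, 129 and 273 CPM, and Gap43, a growth cone protein, at 391, 551, 252 and 447 CPM.

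Over KO E11.5, where both samples carry the deletion, 831 of 7027 genes were called higher in KO E11.75 and 187 (2.66%) lower, 14.5% in all, and the median log2 ratio was 0.24. Of 154 list genes tested 19 were called higher and 9 lower, and with TMM 5 and 15, where 284 and 722 of all 7027 genes were called. In the list of 24 neuronal genes tested, 2 were called higher and 5 lower, and the median lay 0.53 below that of all genes. The 5 were Nefm at -2.74 (-3.26 to -2.29), Stmn3 at -1.48 (-2.15 to -0.91), Stmn2 at -1.41 (-1.86 to -1.0), Gap43 at -1.13 (-1.45 to -0.82) and Tuba1a at -1.01 (-1.18 to -0.85). All 5 were also called with TMM. In summed UMIs, Stmn2 stood out against all other cells, where its ratio was 0.86, a difference of -2.71 to -1.83. Gap43 (-1.01) and Tuba1a (-1.12) were as low in all other cells. Stmn3 (-2.08) and Nefm (-1.40) were also called lower there, Nefm by less than in adrenosympathetic cells. The median of the neuronal list was -0.34 in all other cells, where that of all genes was 0.29, so the lower median was not particular to this type. With cells thinned to equal depth, Stmn2 was detected in 24.4% (17.1 to 32.95) of KO E11.5 cells. The share was 16.1% (7.62 to 28.3) in KO E11.75 and 16.8% (13.2 to 20.95) in XY control. These intervals overlapped, so the share of cells with Stmn2 did not separate the samples. Elavl3, a neuronal RNA-binding protein, went the other way, from 86.9 to 249 CPM.

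Cartpt, 1 of the 3 genes that mark the type, was not seen in KO E11.75. It had 120 UMIs in XY control, 28 in KO E11.5, 0 in KO E11.75 and 28 in XX control cells. That is 49.8, 31.2, 0 and 16.5 CPM, where 0 UMIs allow up to 7.19 CPM if UMIs are independent. By that floor the level in KO E11.75 was at least 6.92-fold lower than in XY control. The UMIs sat in few cells, as the shares given above show, and the KO E11.75 sample had the fewest cells. Among other granule genes, Chga was at 206, 226, 264 and 176 CPM, Chgb at 353, 386, 427 and 286, and Scg5, a chaperone of prohormone cleavage, at 29.9, 55.7, 14.4 and 22.9 CPM. Scg3, a further granin, was at 52.7, 75.7, 31.2 and 39.4 CPM, and both Scg3 and Scg5 were called lower in KO E11.75 over KO E11.5, at -1.24 (-2.26 to -0.41) and -1.85 (-3.47 to -0.73). Cck was called higher there, at 1.30 (0.96 to 1.65) against -0.49 in all other cells, a call that was lost with TMM.

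For genes of migration, guidance and adhesion in KO E11.75 the median lay 0.37 above that of all genes over XY control, with 1 of 14 called higher (6.07% over all genes), and 0.73 above it over KO E11.5, with 6 of 12 called higher and 0 lower (831 and 187 of 7027 over all genes). Nrp2, a semaphorin receptor, was at 116 CPM in XY control, 129 in KO E11.5, 273 in KO E11.75 and 88.7 in XX control cells. Its ratio in KO E11.75 was 1.24 (0.91 to 1.56) against -0.19 in all other cells, a call that was lost with TMM. The others over KO E11.5 were Plxna2, the Slit receptors Robo1 and Robo2, the adhesion molecule Ncam1 and the ephrin receptor Ephb2, at 1.15 to 1.60. With TMM only Plxna2 of the 6 was called. Mesenchyme markers moved with these genes, with 5 of 8 called higher in KO E11.75 over XY control and Pdgfra at 29.4, 11.1, 88.7 and 15.3 CPM in the 4 samples. An alternative added after seeing the data left out cells with 2 or more markers of another type, the enteric and erythroid lists not used, and kept 353, 103, 40 and 73 cells of XY control, KO E11.5, KO E11.75 and XX control. The log2 ratio of Nrp2 over KO E11.5 was 1.73, that of Slc18a2 over XY control 2.02 and that of Nefm -1.62. These are single genes without intervals, and KO E11.75 rests on 40 cells. The other called migration genes are not given for these cells, and mesenchyme RNA in the cells kept was not tested.

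**Figure D4:**
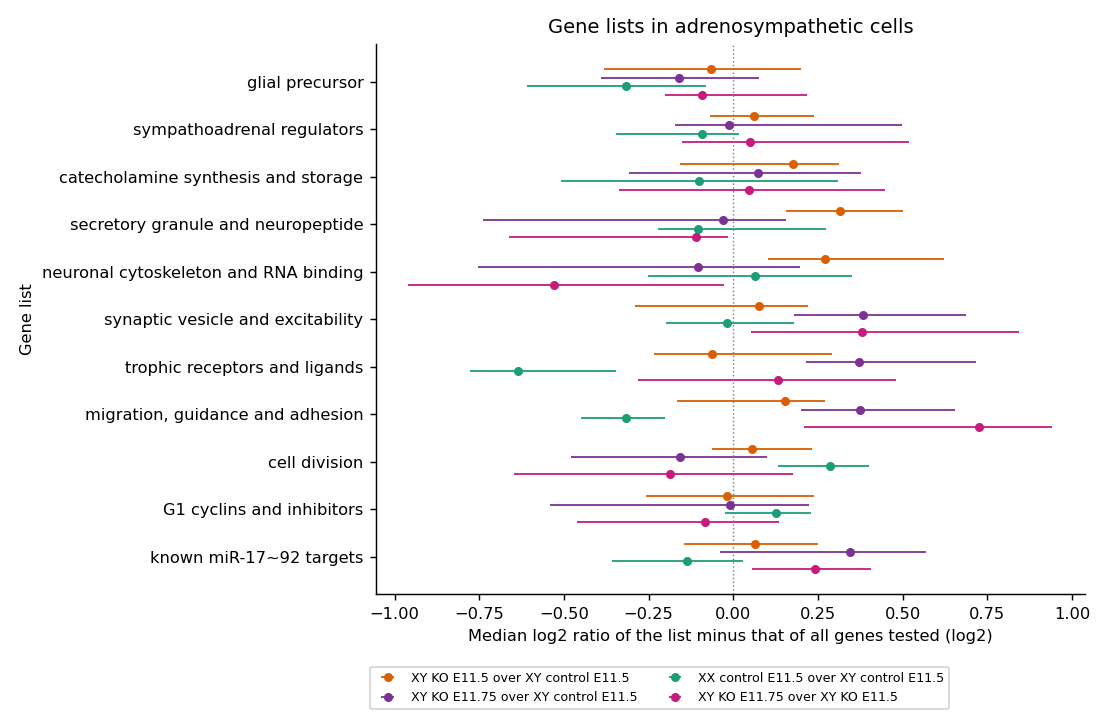
Median log2 ratio of each gene list minus that of all genes tested (x axis, log2) for the 4 comparisons, with lines from the first to the third quartile of the list's genes. Neuronal cytoskeleton genes lie at 0.27 in KO E11.5 over XY control and at -0.53 in KO E11.75 over KO E11.5. All other cells, where this list was also low in the latter comparison, are not drawn.

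The remaining lists had few calls, to be read beside 0.413% higher and 2.99% lower over all genes in KO E11.5 over XY control and 6.07% and 1.61% in KO E11.75. Of 20 glial precursor genes 1 was called lower in KO E11.5 over XY control, 0 were called in KO E11.75, and the median lay 0.07 and 0.16 below that of all genes. With TMM these counts were 0 and 3 lower, the latter with Fabp7 and Sox8 among them. In KO E11.75 over KO E11.5, 831 of all 7027 genes were called higher and 187 lower. Of 17 glial precursor genes 2 were called higher there (Zeb2 and Sox5, neither with TMM). Another 2 were lower under both scalings, Fabp7 at -1.10 (-2.05 to -0.32) and Sox8 at -1.35 (-2.71 to -0.32). Of 17 regulators 3 were called higher in KO E11.75 over XY control (Gata2, Mycn and Rgs4), with the median 0.01 below that of all genes. Over KO E11.5, 3 regulators were called higher and 0 lower, and with TMM 1 and 2. Phox2a was at -0.73 (-1.07 to -0.41) over KO E11.5, called lower only with TMM. Gata3 was at 1.29 (0.95 to 1.62), a call that TMM lost. Of 11 synaptic and excitability genes 2 were called higher in KO E11.75 over XY control, neither with TMM, among them Snap25 of the vesicle fusion machinery. The median lay 0.38 above that of all genes. Snap25 was at 32.4 CPM in XY control, 34.5 in KO E11.5, 64.7 in KO E11.75 and 33.5 in XX control cells. Of 9 trophic receptor and ligand genes 2 were called higher, Ntrk2 and Erbb2, and with TMM only Erbb2, and the median lay 0.37 above that of all genes. The Ntrk2 ratio of 1.0 changed sign to -0.30 as a mean over cells. In the XX control 0 of the 9 genes lay above the median gene. The 4 cholinergic genes had 12 to 29 UMIs in all per sample and none was tested.

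Of 24 cell division genes tested in each comparison, 0 were called, although with TMM 2 were called lower in KO E11.75 over KO E11.5. The median lay 0.05 above that of all genes in KO E11.5 over XY control, 0.16 below in KO E11.75 and 0.29 above in the XX control. Without cells with markers of any other-type list, the KO E11.5 and XX control medians lay below that of all genes, as given below. Ccnd1, which encodes cyclin D1 and is a listed target, was at 835 CPM in XY control, 1081 in KO E11.5, 1402 in KO E11.75 and 666 in XX control cells, and Ccnd2 at 501, 543, 752 and 434 CPM. Both were highest in KO E11.75, below the 2-fold limit, and all other cells gave like ratios for Ccnd1 (0.54 and 0.66 against 0.37 and 0.75). Cdkn1c, the most abundant of the inhibitors, was at 6674, 6219, 3400.3 and 7758 CPM, and was called lower in KO E11.75 only with TMM.

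Of 27 known targets of the cluster tested in KO E11.5 over XY control, 0 were called higher and 1 (E2f2) lower, and the median lay 0.06 above that of all genes. In KO E11.75 over XY control 3 of 27 were called higher and 0 lower (6.07% and 1.61% over all genes), and the median lay 0.35 above that of all genes. In KO E11.75 over KO E11.5, where both samples carry the deletion, 2 of 23 were called higher and 0 lower. Over all genes 831 and 187 of 7027 were called in that comparison, and the median of the targets lay 0.24 above. In all other cells of KO E11.75 the target median was above that of all genes too. It was 0.42 against 0.16 over XY control and 0.52 against 0.29 over KO E11.5. The 3 called over XY control were Epas1 (a hypoxia-inducible factor), Bmpr2 (a BMP receptor) and Ago2 (the protein that microRNAs guide), and with TMM only Epas1 was called. Epas1 was at 56.4 CPM in XY control, 94.6 in KO E11.5, 137 in KO E11.75 and 39.4 in XX control cells, so that both KO samples lay above both controls. In all other cells its ratios were -0.96 and 0.06. Bmpr2 was at 117, 82.4, 235 and 81.7 CPM and Ago2 at 163, 171, 331 and 116 CPM, high in KO E11.75 only.

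An 8mer site (pairing with bases 2 to 8 of the microRNA, with an A opposite base 1) was searched for on the sense strand of the longest annotated 3′ UTR of each gene. The words were GCACTTTA for miR-17, GCACCTTA for miR-18, TTTGCACA for miR-19 and GTGCAATA for miR-92. Of 21020 genes with a 3′ UTR, 11.3% held an 8mer, and of those tested in KO E11.75 over XY control 14.6% did. Of the 14 list genes called higher in KO E11.75, 5 held an 8mer (Slc18a2, Mycn, Gata2, Bmpr2 and Ntrk2), as did 38 of the 175 list genes tested. Their sites, all in the last annotated exon, are shown since these are the listed genes called higher (GENCODE M21, mm10, 5′ to 3′ on the transcript strand). Capitals mark the 8mer.
Slc18a2, miR-17, chr19:59294699-59294724, plus strand: taaaactctGCACTTTAaacagtcaa
Slc18a2, miR-17, chr19:59295963-59295988, plus strand: gtgctggttGCACTTTAgttagatta
Mycn, miR-19, chr12:12936960-12936985, minus strand: cactgccacTTTGCACAttttgattt
Mycn, miR-18, chr12:12936139-12936164, minus strand: tttagtgctGCACCTTAgagcacttt
Gata2, miR-92, chr6:88206773-88206798, plus strand: gtcaaccaaGTGCAATAtcggtgtcc
Bmpr2, miR-92, chr1:59870971-59870996, plus strand: tatttgaatGTGCAATAgtctataga
Ntrk2, miR-92, chr13:59131877-59131902, plus strand: ataagtaggGTGCAATAtgaataatt

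Of these genes only Slc18a2 and Mycn were above XY control in both KO samples, and the Ntrk2 call was lost with TMM. Gata2, a regulator of the lineage, was at 119.9 CPM in XY control, 81.3 in KO E11.5, 266 in KO E11.75 and 91.1 in XX control cells, and with TMM it was not called over XY control. Among the known targets, 18 of 35 held an 8mer, and Epas1 and Ago2, both called higher in KO E11.75, held none. A match is a description of the sequence and not evidence of a functional site.

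Over all genes with a 3′ UTR, the median log2 ratio of genes with an 8mer was -0.08 in KO E11.5 over XY control, as was that of genes without. In KO E11.75 it was 0.45 (1359 genes) against 0.17 (7928 genes), and in the undeleted XX control -0.28 against -0.14. In KO E11.75 over KO E11.5, where both samples carry the deletion, it was 0.50 against 0.19, a difference of 0.31 beside 0.28 over XY control. Genes with an 8mer have longer 3′ UTRs, and the ratios followed 3′ UTR length, with Spearman's rho over genes of -0.14, 0.35 and -0.28 in these comparisons and 0.41 in KO E11.75 over KO E11.5. Genes share libraries and depth, so these are descriptions. When genes were split into 3 groups of nearly equal number by 3′ UTR length, those with an 8mer lay above those without in each group in KO E11.5, by 0.12, 0.05 and 0.05 from the shortest to the longest, and in KO E11.75, by 0.34, 0.11 and 0.12. In the XX control they lay below, by -0.11, -0.03 and -0.02. Over KO E11.5, KO E11.75 gave 0.18, 0.08 and 0.06. In KO E11.75 over XY control, the shortest group held 103 genes with an 8mer and 2992 without, and the longest spanned 1988 to 122583 bases. The groups were thus wide, and length within them was not matched.

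**Figure D5:**
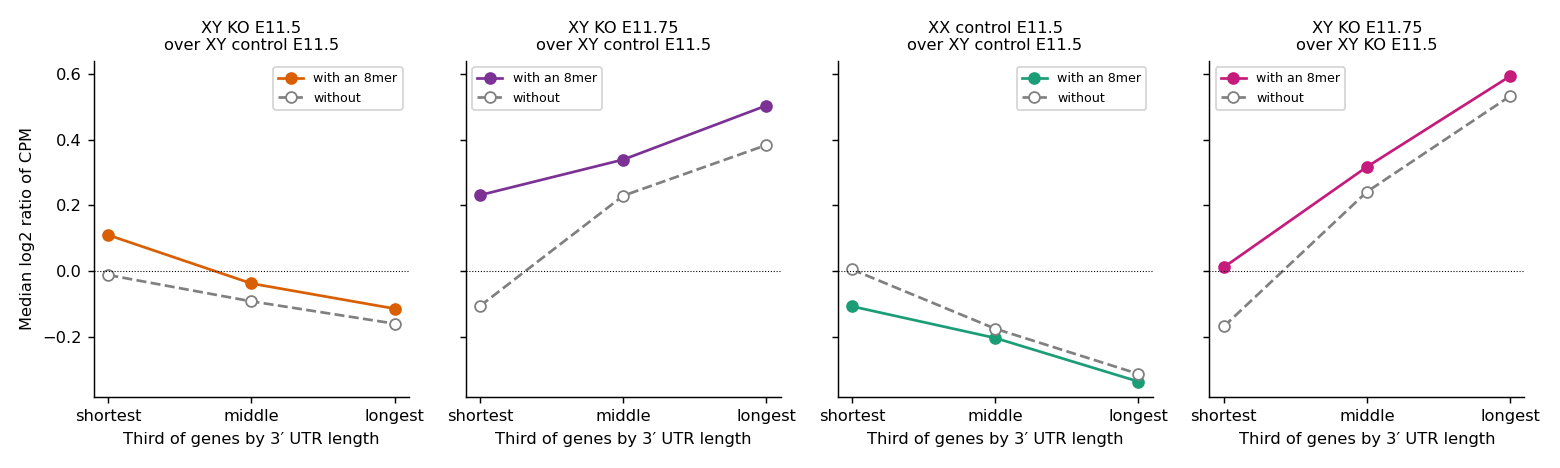
Median log2 ratio of CPM (y axis) of genes with (filled) and without (open) an 8mer site of the cluster, for 3 groups of genes by 3′ UTR length (x axis) in the 4 comparisons. The medians rise with length in both comparisons of KO E11.75 and fall with length in the other 2.

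The XX control differed from the XY control by sex, breeding, depth and filtering at once. Of 10053 genes tested, 0.458% were called higher and 4.21% lower, 4.67% in all, and the median gene stood at -0.16. Xist was at 854 CPM in XX control cells and at most 0.830 CPM in the others, as the labels say. Of 179 list genes tested, 2 were called higher and 10 lower, and with TMM 3 and 4. Npy, a peptide of sympathetic neurons, was higher at 65.8 CPM against 24.9 in XY control, with 29.0 and 31.2 in the KO samples. This rested on the second run, since the first run alone gave a log2 ratio of -1.05 in place of 1.40. Besides Rgs4 and Cartpt, Ednrb was lower, at 114 CPM against 242, a call that TMM lost. Of 20 glial precursor genes, Ednrb among them, 4 were called lower (4.21% over all genes) and 0 higher, and with TMM 1 was lower. The median of this list lay 0.32 below that of all genes. Markers of nephric epithelium summed to 158 CPM in XX cells and 42.3 to 79.6 CPM in the others, with Epcam at 52.3 CPM against 7.19 to 8.71.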

How the data were processed

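Per the study's methods and the labels, gonads with mesonephros were dissociated, fixed in methanol and profiled with the 10x Genomics 3′ kit v3.1. The authors counted reads with Cell Ranger 6.1.1 on mm10, filtered cells on UMIs, genes and percent values, removed doublets, and named cells after integration with Seurat. The deposited counts are raw UMI counts per gene and cell, and all 126435795 nonzero values were checked to be whole. The percent of mitochondrial and beta globin UMIs per cell was computed by the authors. No further cell was removed here.

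UMIs of the 813 cells were summed per sample. Log2 ratios of CPM used a prior count of 0.5 and an exact interval from the binomial distribution, over genes with at least 30 UMIs in both samples together. Levels carry exact Poisson intervals and shares of cells Clopper-Pearson intervals, and 0 UMIs allow the level of 3. With 1 sample per group no test was run. The calculation was tested on simulated sums that vary by counting error only. Such sums hold no variation between cells or pools, so they cannot show how calls fare under it. Alternatives covered scaling (TMM, edgeR 4.0.16), minimum counts, prior, thinning, single runs and subsets of cells. Genes were named from fixed lists and by size, as the 10 highest and 10 lowest ratios of KO E11.5 over XY control among called genes with at least 100 UMIs whose ratio in KO E11.75 went the same way, leaving out mitochondrial, ribosomal protein, globin and Y-linked genes, Xist and Gm42418. The cells, lists and comparisons were chosen with earlier results of these data known. The lists of the lineage held 191 genes and 11 lists marked other cell types, and 4 listed genes were absent from the table. The site search used Python 3.11.15 and GENCODE M21. Some listed genes are not reported here by name, although they stayed in the lists, marker rules and counts.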

Additional observations from a re-analysis of the deposited data

Results flagged for a closer look

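Ntrk2, the BDNF receptor gene, lay below the XY control in KO E11.5 and above it in KO E11.75, which drew attention because the KO stages moved apart. It had 50 UMIs in XY control, 8 in KO E11.5, 17 in KO E11.75 and 20 in XX control cells. The log2 ratios were -1.15 (-2.51 to -0.13) and 1.0 (0.09 to 1.79), and both share the same control cells. The difference between the stages was not tested. Without cells that hold markers of other types, with the enteric and erythroid lists not used, the KO E11.75 ratio was -0.39, and as a mean over cells it was -0.30.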

How the results depend on the processing

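No paired analysis was possible because each group was 1 sample and no test was run. All intervals cover counting error only. With TMM, 62 genes were called higher in KO E11.5 over XY control, 216 higher and 472 lower in KO E11.75 over XY control, 267 lower in the XX control, and 284 higher and 722 lower in KO E11.75 over KO E11.5. With at least 10 UMIs, 68 and 82 genes were called higher in KO E11.5 and the XX control. With at least 100 UMIs, 7, 181, 13 and 150 were called higher and 66, 88, 119 and 91 lower in KO E11.5, KO E11.75 and the XX control over XY control and in KO E11.75 over KO E11.5. A prior count of 5 gave 67, 23, 207 and 69 lower in that order. Thinning to 2000 UMIs gave 158 lower in KO E11.5, and 316 and 224 higher in KO E11.75 over XY control and over KO E11.5. The second run alone gave 77 and 72 higher in KO E11.5 and the XX control.

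Shares among non-gonadal cells were 3.22%, 1.09%, 1.25% and 3.24% in XY control, KO E11.5, KO E11.75 and XX control, and the XY control runs gave 1.85% and 2.60%. State shares depended on depth and rule. With no thinning, the precursor share of KO E11.5 and the neuroblast shares of KO E11.75 and of the XX control had intervals above those of XY control. Precursor shares were 29.96%, 44.8%, 33.8% and 36.8% with no thinning, 41.5%, 47.2%, 28.6% and 30.2% with at least 1 marker, and 28.9%, 34.5%, 25.9% and 19.7% at 3000 UMIs. Neuroblast shares were 69.8%, 73.9%, 88.2% and 88.5% with no thinning, 87.3%, 81.3%, 89.3% and 88.4% with at least 1 marker, and 73.5%, 66.4%, 85.2% and 73.2% at 3000 UMIs.

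Leaving out cells with markers of any other-type list kept 42, 44, 10 and 23 cells. It gave 87 genes lower in KO E11.5, 128 higher in KO E11.75, 82 higher and 256 lower in the XX control, and 193 higher in KO E11.75 over KO E11.5. Relative list medians were then -0.26 for cell division in KO E11.5, 0.81 for migration and -1.47 for granule genes in KO E11.75, and 0.73 for catecholamine and 0.63 for glial genes in KO E11.75 over KO E11.5. In the XX control they were -0.22 for G1 cyclins, -0.77 for catecholamine, -0.11 for cell division, 0.57 for glial, -0.21 for neuronal, -1.71 for granule, -0.37 for regulator, -0.60 for synaptic and -0.91 for trophic genes. With the enteric and erythroid lists not used, an alternative chosen after seeing the data, they were 0.39 for granule and 0.89 for synaptic genes in KO E11.75, and 0.81 for catecholamine, 0.44 for target and 0.73 for trophic genes in KO E11.75 over KO E11.5.

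Also added after seeing the data, the median of genes with an 8mer minus that of genes without was 0.33 and 0.45 with at least 100 UMIs in KO E11.75 over XY control and over KO E11.5, and 0.22 over XY control with a prior count of 5. Thinning gave -0.25 in the XX control and 0.43 over KO E11.5. The first run alone gave -0.18 in the XX control and -0.034 in KO E11.5, and the second run -0.12 and, over KO E11.5, 0.38. Without cells with markers of any other-type list it was -0.044, 0.37, -0.18 and 0.43 in the order above, and 0.39 over KO E11.5 with the enteric and erythroid lists not used. The log2 ratio of Npy in the XX control was -1.05 in the first run alone. Ntrk2 in KO E11.75 was at -0.30 as a mean over cells and at -0.39 without cells with markers of other types, with the enteric and erythroid lists not used. The cause of these changes was not tested.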

Other observations

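Kcnk9, an imprinted potassium channel gene chosen after its values were seen, was at 101 CPM in XY control, 147 in KO E11.5, 496 in KO E11.75 and 24.7 in XX control adrenosympathetic cells. Its log2 ratio over XY control was 0.54 (0.22 to 0.85), 2.29 (2.02 to 2.57) and -2.02 (-2.54 to -1.56), and the last 2 were also called with TMM.

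The 170 cells with neither marker set after thinning still held Tlx2 at 568 CPM and Ednrb at 218 CPM, against 811 and 49.3 CPM in neuroblast-only cells.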
